A study of Caenorhabditis elegans with 6 samples.

Results

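The 10 genes described here carry out or govern the response of *Caenorhabditis elegans* to hypertonic medium. They were taken by name from a deposited table of 46778 genes: the glycerol-3-phosphate dehydrogenases *gpdh-1* and *gpdh-2*, the inositol transporters *hmit-1.1*, *hmit-1.2* and *hmit-1.3*, the aquaporin *aqp-8*, and the regulators *osm-7*, *osm-8*, *osm-11* and *ptr-23*. All 10 names matched a single row. The study sequenced total RNA of worms in 6 libraries, 3 treated with JM03, by the series title a derivative of the antipruritic drug crotamiton, and 3 from control animals. The title ties JM03 to lifespan, to resistance against oxidative and hypertonic stress, and to the sensory channel OSM-9, and the comparison of JM03 with control asks how genes of that kind differ in treated worms. The labels give a treatment and a replicate number for each library, and no strain, stage, dose or exposure time was found in the sources used here. Whether the replicates came from separate cultures is not stated either, and the spread behind every p-value may therefore be technical.

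A worm that loses water in salty medium makes and keeps glycerol, an organic solute that balances the outside salt without harming proteins. GPDH enzymes make glycerol 3-phosphate, the precursor of glycerol, from a glycolytic intermediate, and *gpdh-1* is the classical gene switched on by hypertonic medium. HMIT proteins carry myo-inositol, another organic solute, into cells together with protons, and aquaporins let water or glycerol pass through membranes. Secreted proteins of the epidermis hold this response down in normal medium: worms that lack *osm-7*, *osm-8* or *osm-11* make glycerol as if under salt stress, and loss of the membrane protein gene *ptr-23* undoes the effect of losing *osm-8*.

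Expression was taken to be in TPM, the share of all transcripts after scaling by transcript length, a unit inferred from the column sums. The number of reads behind a TPM value is unknown. Of the 10 genes, 9 had at least 1 TPM in at least 3 libraries and were tested together with the rest of the 12912 genes that met this filter, and *osm-8* did not meet it. Of the 9, *gpdh-1* and *hmit-1.3* reached 1 TPM in 5 libraries, *hmit-1.2* in 4 and the others in all 6. The libraries short of 1 TPM were all controls. Control replicate 3 was unlike the rest. Across genes it reached Spearman correlations of 0.784 to 0.866 with the other 5 libraries, which reached 0.901 to 0.978 with each other. Its values were low for long transcripts, with a Spearman correlation of -0.547 across genes between its deviation from the gene median and transcript length. That correlation was 0.105, 0.039 and 0.154 in JM03 replicates 1, 2 and 3. In control replicates 1 and 2 it was -0.0035 and -0.0081. Over all tested genes the median log2 fold change, JM03 over control, was 0.35 with 6 libraries and 0.046 without control replicate 3. Fold changes of the 9 genes are therefore given relative to that median or with the share of tested genes above them. Each is given again without control replicate 3. Fold changes of other single genes are not set beside that median.

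None of the 9 tested genes passed the test of JM03 against control (limma, Benjamini-Hochberg adjusted p = 0.306 to 0.500 over all tested genes). Of all tested genes 17 were called, or 0.132%. All 9 had a positive log2 fold change, as did 72.7% of all tested genes. For 7 of the 9, *gpdh-1*, the 3 *hmit-1* genes, *aqp-8*, *osm-11* and *ptr-23*, every JM03 library lay above every control library, which held for 21.9% of all tested genes. An unadjusted limma p below 0.05 was found for 5 of the 9, against 11.7% of all tested genes. Without control replicate 3 none of the 9 was called either (limma adjusted p = 0.233 to 0.649, with 0.132% of all tested genes called). The same 7 genes did not overlap then, against 23.7% of all tested genes, and 4 of the 9 had an unadjusted limma p below 0.05, against 19.5%. The members were chosen with earlier results of these data known, so these counts describe the genes and add no separate support.

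**Figure D1:**
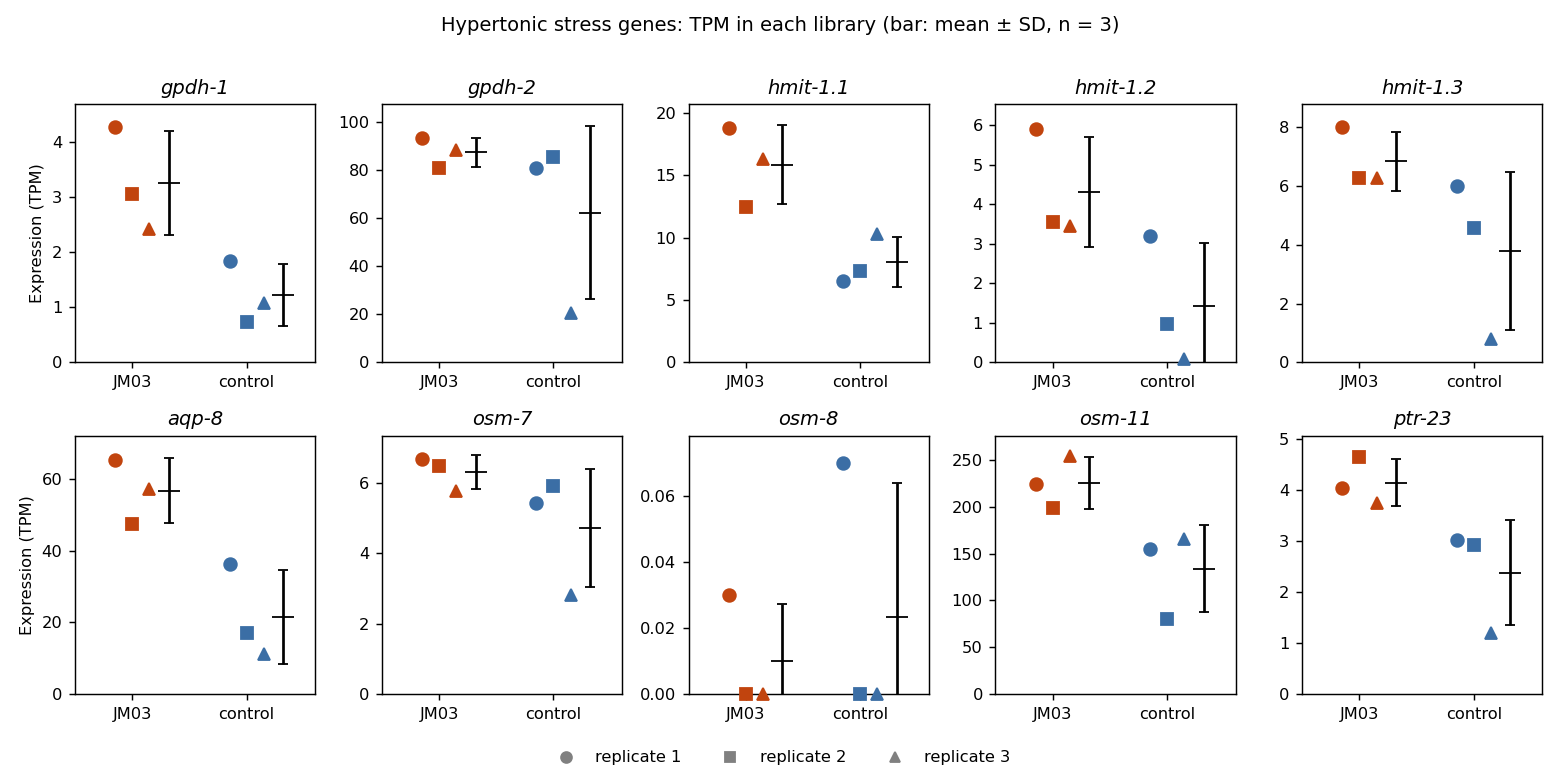
Expression in TPM (vertical axes, linear from 0, a scale for each gene) of the 10 genes in JM03 libraries (orange, left) and control libraries (blue, right), with the replicate number as the symbol and the mean ± SD of 3 libraries as the black bar. The JM03 libraries of *gpdh-1*, the 3 *hmit-1* genes, *aqp-8*, *osm-11* and *ptr-23* all lie above the controls, while control replicate 3 (triangle) is the lowest library of *gpdh-2*, *hmit-1.2*, *hmit-1.3*, *aqp-8*, *osm-7* and *ptr-23*.

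The glycerol pair was split in level. *gpdh-1* (WBGene00009824, chromosome I, 14075837 to 14078211 in WBcel235, plus strand) had 4.28, 3.05 and 2.43 TPM in JM03 and 1.84, 0.74 and 1.07 TPM in control. Every JM03 library was above every control, by a margin of 0.59 TPM between the nearest libraries, and control replicate 3 was not the lowest control. The means were 3.25 ± 0.942 TPM in JM03 and 1.22 ± 0.565 TPM in control (SD, n = 3 each), a ratio of 2.67. In log2(TPM + 1), where added 1 shrinks the differences of genes at low TPM, the fold change was 0.95 ± 0.291 (SE; limma adjusted p = 0.306), and 11.1% of tested genes had a larger one. Without control replicate 3 it was 0.91 ± 0.304 (limma adjusted p = 0.233), and 2.62% of tested genes had a larger one. Without control replicate 2, the lowest library of *gpdh-1*, it was 0.79 ± 0.334 (limma adjusted p = 0.394), and 29.4% of tested genes had a larger one. Relative to the median of all genes the fold change was 0.60 with 6 libraries, 0.87 without control replicate 3 and 0.34 without control replicate 2. Its end overlaps the opposite-strand gene *gadr-6* by 73 bases, and *gadr-6* had 10.64 to 12.41 TPM in JM03 and 2.93 to 14.62 TPM in control.

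*gpdh-2* (WBGene00010778, chromosome III, 9854074 to 9859183, minus strand) encodes the other cytosolic enzyme of this kind. It had 93.33, 81.17 and 88.31 TPM in JM03 and 80.82, 85.54 and 20.74 TPM in control. The groups overlapped, and 5 of the 6 libraries lay between 80.82 and 93.33 TPM, with control replicate 3 alone below them. Its log2 fold change was 0.72 ± 0.554 (SE; limma adjusted p = 0.495) with all libraries and 0.072 ± 0.0844 without control replicate 3 (limma adjusted p = 0.621). The 95% confidence interval of that second value ran from -0.14 to 0.29. Set against the median of all genes the fold changes were 0.37 and 0.026. Most of the pair's transcripts were *gpdh-2*: the share of *gpdh-1* in the summed TPM of both was 4.38%, 3.62% and 2.68% in JM03 and 2.23%, 0.858% and 4.91% in control. These shares overlapped, the highest being that of control replicate 3, where *gpdh-2* was low.

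The inositol transporters differed from each other in which library set the control mean. *hmit-1.1* (WBGene00013073, chromosome V, 18516789 to 18523875, plus strand), the most abundant of them on average, had 18.83, 12.49 and 16.29 TPM in JM03 and 6.50, 7.30 and 10.29 TPM in control. Every JM03 library was above every control, and control replicate 3 was the highest control, although the transcript is long at 2091 nt. The means were 15.87 ± 3.19 TPM in JM03 and 8.03 ± 2.00 TPM in control (SD, n = 3 each), a ratio of 1.98. The log2 fold change was 0.91 ± 0.320 (SE; limma adjusted p = 0.353) and 1.08 ± 0.208 without control replicate 3 (limma adjusted p = 0.233). A larger fold change was found for 12.9% of tested genes with 6 libraries and for 1.69% without control replicate 3. Without control replicate 1, the lowest library of *hmit-1.1*, the fold change was 0.78 (limma adjusted p = 0.265) and 34.6% of tested genes had a larger one.

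*hmit-1.2* (WBGene00013074, chromosome V, 18524760 to 18529156, plus strand) lies 884 bases downstream of *hmit-1.1* with no annotated gene between them. It had 5.91, 3.56 and 3.45 TPM in JM03 and 3.19, 0.98 and 0.09 TPM in control. The groups did not overlap, but the nearest libraries were only 0.26 TPM apart, and the controls spread widely. On the log2 scale the fold change was 1.32 ± 0.502 (SE; limma adjusted p = 0.378) and 0.85 ± 0.394 without control replicate 3 (limma adjusted p = 0.292). Set against the median of all genes these were 0.97 and 0.80. The neighbours thus had their lowest values in different libraries: control replicate 1 for *hmit-1.1* and control replicate 3 for *hmit-1.2*. The authors' counting is not stated to use strand. The 3 non-coding genes annotated inside *hmit-1.2* on the opposite strand were listed at 0 in all libraries. These zeros do not show how reads of either strand were counted.

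*hmit-1.3* (WBGene00010811, chromosome III, 3510924 to 3519607, minus strand) had 8.0, 6.26 and 6.27 TPM in JM03 and 6.01, 4.58 and 0.80 TPM in control. The groups were separated by 0.25 TPM, with control replicate 3 far below the rest. The log2 fold change was 0.92 ± 0.527 (SE; limma adjusted p = 0.490) with all libraries and 0.32 ± 0.204 without control replicate 3 (limma adjusted p = 0.392). Set against the median of all genes these were 0.57 and 0.27. Its end overlaps the opposite-strand mitochondrial ribosomal protein gene *mrpl-35* by 51 bases, and *mrpl-35* had 47.18 to 49.24 TPM in JM03 and 53.23 to 63.67 TPM in control. Summed over the 3 transporters the level was 32.74, 22.31 and 26.01 TPM in JM03 and 15.70, 12.86 and 11.18 TPM in control. No library of the JM03 sum reached down to the controls, and *hmit-1.1* made up 56.0% to 62.6% of it in JM03 and 41.4% to 92.0% in control. The share of *hmit-1.1* was 41.4%, 56.8% and 92.0% in control replicates 1, 2 and 3. *hmit-1.1* was lowest in control replicate 1, and *hmit-1.2* and *hmit-1.3* were both low in control replicate 3.

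The aquaporin *aqp-8* (WBGene00000176, chromosome X, 4702167 to 4704977, minus strand), a gene of the excretory canal cell that regulates body water, was the third most abundant of the 10 genes by mean TPM. It had 65.53, 47.41 and 57.33 TPM in JM03 and 36.21, 17 and 11.24 TPM in control. The nearest libraries were 11.2 TPM apart, and no control reached the JM03 libraries. The means were 56.8 ± 9.07 TPM in JM03 and 21.5 ± 13.1 TPM in control (SD, n = 3 each), a ratio of 2.64, and the log2 fold change was 1.51 ± 0.461 (SE; limma adjusted p = 0.306), with 1.2% of tested genes higher. Without control replicate 3 it was 1.15 ± 0.329 (limma adjusted p = 0.233), with 1.54% of tested genes higher. In bulk RNA, fewer cells of a type and less RNA per cell cannot be told apart. The 7 other excretory cell markers found in the table summed to 48.7 to 54.5 TPM in JM03 and 15.9 to 63.2 TPM in control, overlapping between groups. No marker of that list was at 0 in any library, and control replicate 3 had the lowest sum. Of the 5 tested, *vha-5*, a subunit of the proton pump, had 13.56, 11.87 and 12.97 TPM in JM03 and 10.00, 5.79 and 1.40 TPM in control, without overlap, while *exc-9* had 15.92, 19.92 and 18.01 TPM in JM03 and 22.65, 37.10 and 8.65 TPM in control. The part of these cells in the *aqp-8* values was not tested.

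Among the regulators, *osm-11* (WBGene00003891, chromosome X, 17420211 to 17421582, minus strand) was the most abundant of the 10 genes. It encodes a secreted ligand that acts with Notch receptors and keeps glycerol synthesis low. It had 224.63, 198.46 and 254.21 TPM in JM03 and 155.38, 80.24 and 165.55 TPM in control. The groups did not overlap, and control replicate 2, not 3, was the lowest library. The means were 225.8 ± 27.9 TPM in JM03 and 133.7 ± 46.6 TPM in control (SD, n = 3 each), a ratio of 1.69. The log2 fold change was 0.81 ± 0.331 (SE; limma adjusted p = 0.412) and 1.00 ± 0.291 without control replicate 3 (limma adjusted p = 0.233), with 17.5% and 2.08% of tested genes higher. Without control replicate 2 it was 0.48 ± 0.255, close to the median of 0.45 over all genes in that fit (limma adjusted p = 0.394), and 47.8% of tested genes were higher.

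*osm-7* (WBGene00003887, chromosome III, 13576182 to 13580662, plus strand) encodes a related secreted protein. It had 6.67, 6.49 and 5.76 TPM in JM03 and 5.44, 5.92 and 2.81 TPM in control. The groups overlapped, and apart from control replicate 3 all libraries lay between 5.44 and 6.67 TPM. Its log2 fold change was 0.40 ± 0.322 (SE; limma adjusted p = 0.500) and 0.13 ± 0.164 without control replicate 3 (limma adjusted p = 0.649). Relative to the median of all genes these were 0.048 and 0.082, and with 6 libraries no other of the 9 was as close to that median. *osm-11* was at 30.6 to 44.1 times the TPM of *osm-7* in JM03 and at 13.6 to 58.9 times in control, so the ratio of the 2 ligand genes did not separate the groups.

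*osm-8* (WBGene00003888, chromosome II, 7604196 to 7605406, minus strand) encodes a mucin-like secreted protein of the epidermis. It was listed at 0.03, 0 and 0 TPM in JM03 and at 0.07, 0 and 0 TPM in control, below the filter of the main test. With no filter on low values its log2 fold change was -0.018 (limma adjusted p = 0.813), and no difference was detectable at this level. The whole gene lies within *npp-21*, a nuclear pore gene on the opposite strand with 48.98 to 54.53 TPM in JM03 and 18.00 to 70.17 TPM in control. None of the 1167 exonic bases of *osm-8* falls in an annotated exon of *npp-21*. A listed 0 may also stand for an estimate that failed.

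*ptr-23* (WBGene00004237, chromosome I, 14906792 to 14913083, plus strand) encodes a patched-related membrane protein. It had 4.04, 4.65 and 3.74 TPM in JM03 and 3.02, 2.92 and 1.19 TPM in control. Every JM03 library was above every control, by 0.72 TPM between the nearest. The means were 4.14 ± 0.464 TPM in JM03 and 2.38 ± 1.03 TPM in control (SD, n = 3 each), a ratio of 1.74. On the log2 scale the fold change was 0.66 ± 0.318 (SE; limma adjusted p = 0.468) and 0.37 ± 0.172 without control replicate 3 (limma adjusted p = 0.293). Set against the median of all genes these were 0.31 and 0.32. *ptr-23* was thus listed above 1 TPM in all 6 libraries, in which *osm-8* was at or near 0.

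**Figure D2:**
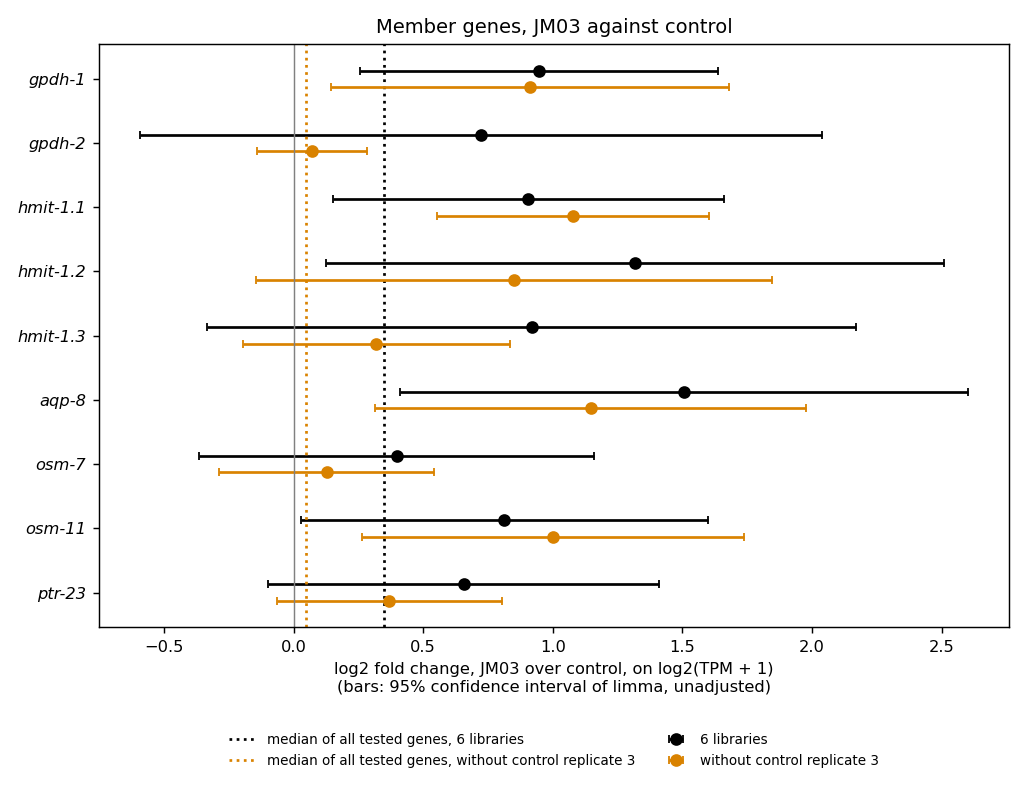
Log2 fold change on log2(TPM + 1), JM03 over control, of the 9 tested genes (horizontal axis), with 95% confidence intervals of the limma fit, not adjusted for multiple testing. Black shows 6 libraries and orange the fit without control replicate 3, and the dotted lines mark the medians of all tested genes, 0.35 and 0.046. The points of *gpdh-1*, *hmit-1.1* and *osm-11* lie close together or further right without that library, while those of the other 6, *gpdh-2*, *hmit-1.2*, *hmit-1.3*, *aqp-8*, *osm-7* and *ptr-23*, move towards 0.

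Ordered by mean TPM over the 6 libraries, the levels ran *osm-11*, *gpdh-2*, *aqp-8*, *hmit-1.1*, *osm-7*, *hmit-1.3*, *ptr-23*, *hmit-1.2*, *gpdh-1* and *osm-8*. TPM is scaled by length, so levels of different genes can be set side by side within a library. Across libraries the ranges of all neighbours in this order overlapped except those of *gpdh-1*, at 0.74 to 4.28 TPM, and *osm-8*, at 0 to 0.07 TPM. Within libraries *gpdh-2* was above *aqp-8*, *aqp-8* above *hmit-1.1* and *hmit-1.1* above *osm-7* in all 6. *osm-11* was above *gpdh-2* in 5, the exception being control replicate 2. *osm-7* was above *hmit-1.3* in 3, so these genes had no set order.

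The 9 genes differed in the library that held their lowest value. As a measure of likeness, each gene's log2(TPM + 1) values were centred and the root mean square distance between genes over the 6 libraries was taken. The nearest pairs were *osm-7* and *ptr-23* at 0.148, *gpdh-2* and *hmit-1.3* at 0.175 and *aqp-8* and *hmit-1.2* at 0.194, all genes with their lowest value in control replicate 3. *gpdh-1* was nearest to *osm-11* at 0.341 and to *hmit-1.1* at 0.368, and these are the 3 genes with their lowest value in control replicate 1 or 2. The full set of distances did not divide the genes this way. *osm-7* was nearer to *gpdh-1*, at 0.451, than to *hmit-1.2* or *aqp-8*, at 0.631 and 0.667. *ptr-23* was likewise nearer to *gpdh-1*, at 0.393, than to *hmit-1.2* or *aqp-8*, at 0.534 and 0.556. In control replicate 3 the deviation from the gene median was -0.59 for *gpdh-1*, -0.13 for *hmit-1.1* and -0.13 for *osm-11*, against -0.84 to -1.99 for the other 6. Over all tested genes the median deviation of that library was -0.75. The longest annotated transcripts of those 3 genes are 1308, 2091 and 1176 nt, and those of the other 6 run from 1474 nt for *gpdh-2* to 3424 nt for *ptr-23*, against a median of 1267 nt over the tested genes. The part of transcript length in these deviations was not tested for the 9 genes.

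**Figure D3:**
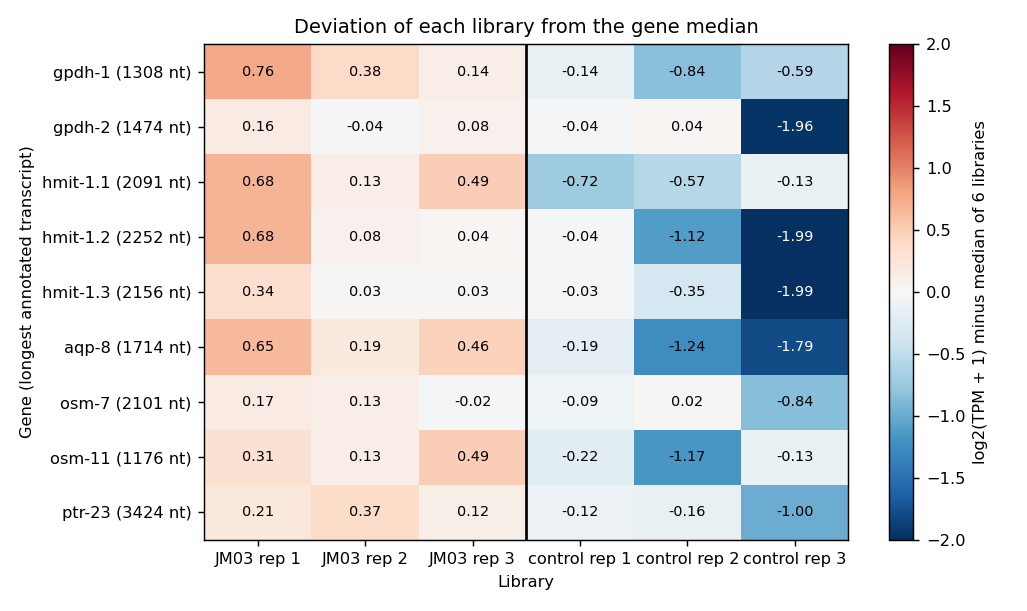
Deviation of log2(TPM + 1) in each library (columns, JM03 left of the line, control right) from the gene's median over 6 libraries, for the 9 tested genes (rows, with the longest annotated transcript in nt), red above and blue below the median. *gpdh-2*, *hmit-1.2*, *hmit-1.3* and *aqp-8* are at -1.79 to -1.99 in control replicate 3, where *hmit-1.1* and *osm-11* are at -0.13.

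Over all tested genes, those most like *gpdh-1* by the same distance were Y51B9A.8 at 0.0903, F53A9.8 at 0.0973 and Y54E10A.17 at 0.112. Y51B9A.8 had 21.65, 17.61 and 16.10 TPM in JM03 and 11.17, 6.13 and 8.19 TPM in control. F53A9.8 had 1091.06, 990.86 and 798.18 TPM in JM03 and 576.36, 397.95 and 440.53 TPM in control. Y54E10A.17 had 51.90, 49.64 and 42.44 TPM in JM03 and 32.83, 19.49 and 24.20 TPM in control. Like *gpdh-1*, each was highest in JM03 replicate 1 and lowest in control replicate 2. They are named for likeness alone, and 652 genes were nearer to *gpdh-1* than its nearest fellow member, *osm-11*.

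Other genes of the osmotic response were taken as 11 lists, of which 94 genes were in the table and 57 were tested. None of the 57 was called (limma adjusted p of 0.306 or more), against 0.132% of all tested genes. Of the 57, 7 (12.3%) had an unadjusted limma p below 0.05, near the 11.7% of all tested genes. In 27 of them (47.4%) every JM03 library was above every control, against 21.9% of all tested genes. The filter can be met by the 3 JM03 libraries alone, in these lists and over all genes. Without control replicate 3, 13 (22.8%) had an unadjusted limma p below 0.05, against 19.5%, and 27 did not overlap, against 23.7%. The median log2 fold change of the 57 relative to all tested genes was 0.36 with 6 libraries and 0.21 without control replicate 3. That of the 9 tested members was 0.56 and 0.80. Before it was set against all genes, the members' median was 0.91 and 0.85. Without control replicate 2 the members' relative median was 0.41. It then lay above the medians of the aquaporin, sensory, furrow collagen and osmotically inducible lists. Medians of the remaining lists were higher, up to 1.29 for the Notch list. The lists were chosen with earlier results known, so these values add no separate support.

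Glycerol metabolism beyond the *gpdh* pair had 5 genes in the table and 4 tested. The closest to the test was *pgph-3*, a phosphatase gene of the group that releases glycerol from glycerol 3-phosphate. It had 3.67, 3.48 and 4.94 TPM in JM03 and 2.32, 0.42 and 0.65 TPM in control, without overlap (log2 fold change 1.33 ± 0.367 SE, limma adjusted p = 0.306, and 1.2 without control replicate 3). Its relative *pgph-2* had 55.46, 46.95 and 55.49 TPM in JM03 and 39.24, 24.34 and 42.47 TPM in control, also without overlap (0.60 ± 0.329, limma adjusted p = 0.483, and 0.74 without control replicate 3). In both, control replicate 2 was the lowest library. R11F4.1, annotated as a probable glycerol kinase, had 53.26, 46.08 and 37.80 TPM in JM03 and 36.07, 27.62 and 5.95 TPM in control (1.25 ± 0.644, limma adjusted p = 0.474, and 0.51 without control replicate 3). The mitochondrial dehydrogenase *gpdh-3*, which uses up glycerol 3-phosphate, had 65.68 to 66.32 TPM in JM03 and 67.40, 74.40 and 12.66 TPM in control. Like *gpdh-2* it was far lower in control replicate 3 than elsewhere, and its log2 fold change was 0.70 with 6 libraries and -0.10 without that library. Every JM03 library of *gpdh-3* lay below control replicates 1 and 2, which held for 18.5% of all tested genes. *pgph-1* was listed at 0 in 4 libraries and was not tested.

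For inositol, both synthesis genes were tested and neither was called. *inos-1*, the myo-inositol 3-phosphate synthase, had 68.01, 59.52 and 67.71 TPM in JM03 and 55.50, 48.65 and 31.36 TPM in control. *ttx-7*, the phosphatase that frees myo-inositol, had 80.02, 64.91 and 72.42 TPM in JM03 and 60.24, 54.07 and 13.19 TPM in control. Neither overlapped between groups (log2 fold changes 0.55 and 1.01, limma adjusted p = 0.490 for both), and without control replicate 3 both were at 0.32 to 0.33. Trehalose, a further protective solute, had all 8 genes tested and none called. The closest to the test was the trehalase gene *tre-4*, at 1.67, 1.92 and 1.46 TPM in JM03 and 1.16, 0.83 and 0.51 TPM in control (0.56 ± 0.222 SE, limma adjusted p = 0.399, and 0.43 without control replicate 3). The most abundant of the list, the trehalase gene *tre-1*, did not overlap, at 58.12, 48.83 and 58.35 TPM in JM03 and 48.57, 33.76 and 3.36 TPM in control (1.51 ± 0.881 SE, limma adjusted p = 0.490, and 0.43 without control replicate 3). The synthase gene *tps-2* overlapped between groups, at 31.78 to 40.33 TPM in JM03 and 26.31 to 41.66 TPM in control (0.14, limma adjusted p = 0.783, and 0.070 without control replicate 3).

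Of the 11 other aquaporin genes 7 were tested and none was called. *aqp-2* was the closest to the test, at 17.14, 21.52 and 53.16 TPM in JM03 and 16.83, 16.08 and 6.70 TPM in control (1.08 on the log2 scale, limma adjusted p = 0.473, and 0.69 without control replicate 3). Its JM03 values spread widely, with replicate 3 the highest. *aqp-7* overlapped between groups, at 29.60 to 47.73 TPM in JM03 and 5.79 to 34.22 TPM in control (1.15, limma adjusted p = 0.479, and 0.48 without control replicate 3). *aqp-11* had 22.16, 18.21 and 22.61 TPM in JM03 and 15.79, 14.66 and 17.95 TPM in control (0.36, limma adjusted p = 0.500, and 0.43 without control replicate 3). *aqp-9* had a negative fold change, at 3.69 to 4.84 TPM in JM03 and 4.60 to 4.71 TPM in control (-0.13, limma adjusted p = 0.738, and -0.12 without control replicate 3).

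The list of osmotic signalling genes held kinases and transcription factors, and 8 of its 9 genes were tested. *wnk-1*, a WNK family kinase needed for switching on *gpdh-1*, had 54.21 to 60.94 TPM in JM03 and 57.14, 59.28 and 13.83 TPM in control (0.66 on the log2 scale, limma adjusted p = 0.510, and -0.0023 without control replicate 3). Its partner *gck-3* had 32.86 to 38.22 TPM in JM03 and 34.81, 37.30 and 10.10 TPM in control (0.59, limma adjusted p = 0.517, and 0.0059 without control replicate 3). Both overlapped between groups. The kinase gene *nsy-1*, the closest to the test in its list, had 4.44 to 4.93 TPM in JM03 and 3.57, 3.22 and 0.40 TPM in control, without overlap (0.93, limma adjusted p = 0.474, and 0.38 without control replicate 3). Of the 4 tested transporters of cell volume control, *kcc-1*, a potassium chloride cotransporter, was the closest to the test, at 16.99 to 18.86 TPM in JM03 and 15.60, 13.19 and 1.80 TPM in control (1.1, limma adjusted p = 0.490, and 0.29 without control replicate 3). The lists of osmotic signalling genes and of volume transporters had relative medians of 0.41 and 0.46 with 6 libraries and of 0.10 and 0.047 without control replicate 3.

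Of the 10 genes for Notch ligands, receptors and their partners 5 were tested. *lag-1*, the transcription factor of the Notch pathway, was the closest to the test, at 54.73, 47.73 and 56.20 TPM in JM03 and 44.96, 40.11 and 2.80 TPM in control (1.48 on the log2 scale, limma adjusted p = 0.490, and 0.31 without control replicate 3). The list's relative median was 0.85 with 6 libraries and -0.018 without that library. The patched-related family of *ptr-23* had 25 genes in the table and 12 tested, and in 8 of them every JM03 library was above every control, against 21.9% of all tested genes. *ptr-22* had 8.89, 9.44 and 5.06 TPM in JM03 and 3.58, 2.70 and 0.61 TPM in control (1.51 ± 0.463 SE, limma adjusted p = 0.306, and 1.06 without control replicate 3). The patched homologue *ptc-1*, the most abundant of the list, had 85.89 to 109.37 TPM in JM03 and 83.66, 73.56 and 21.26 TPM in control (0.88, limma adjusted p = 0.490, and 0.27 without control replicate 3). The family's relative median was 0.36 with 6 libraries and 0.26 without control replicate 3.

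Most listed genes of the sensory neurons that detect salt and other stimuli were below the filter. *osm-9*, the TRPV channel gene named in the title, and its partner *ocr-2* did not meet the filter. *ocr-2* was listed at 0.61, 0.82 and 0.17 TPM in JM03 and at 0.79, 1.19 and 0.72 TPM in control, and *osm-9* stayed at or below 0.36 TPM in JM03 and 0.28 TPM in control. Only 3 of the 11 genes for *osm* sensory proteins and TRPV channels were tested, none was called, and their relative medians were -0.49 with 6 libraries and -0.19 without control replicate 3. *osm-1*, the closest of them to the test, had 1.09 to 1.58 TPM in JM03 and 0.45 to 1.39 TPM in control, with overlap (0.22, limma adjusted p = 0.598, and -0.016 without control replicate 3). *osm-3*, the most abundant, had 3.13 to 4.47 TPM in JM03 and 2.54 to 5.59 TPM in control, also with overlap (-0.16, limma adjusted p = 0.752, and -0.44 without control replicate 3). Of the 6 furrow collagen genes, whose loss switches on *gpdh-1*, 2 were tested and none was called. *dpy-10* had 3.18, 2.88 and 6.54 TPM in JM03 and 3.39, 2.28 and 0.90 TPM in control, which overlapped (0.72, limma adjusted p = 0.490, and 0.39 without control replicate 3). The osmotically inducible genes *nlp-29*, an epidermal peptide gene, and *lea-1*, which protects against desiccation, differed by 0.23 and 0.36 on the log2 scale (limma adjusted p = 0.612 and 0.490). Without control replicate 3 these were 0.27 and 0.14. *nlp-29* overlapped, at 218.83 to 375.14 TPM in JM03 and 188.84 to 272.26 TPM in control, and *lea-1* did not, at 266.71 to 309.51 TPM in JM03 and 161.78 to 261.04 TPM in control.

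**Figure D4:**
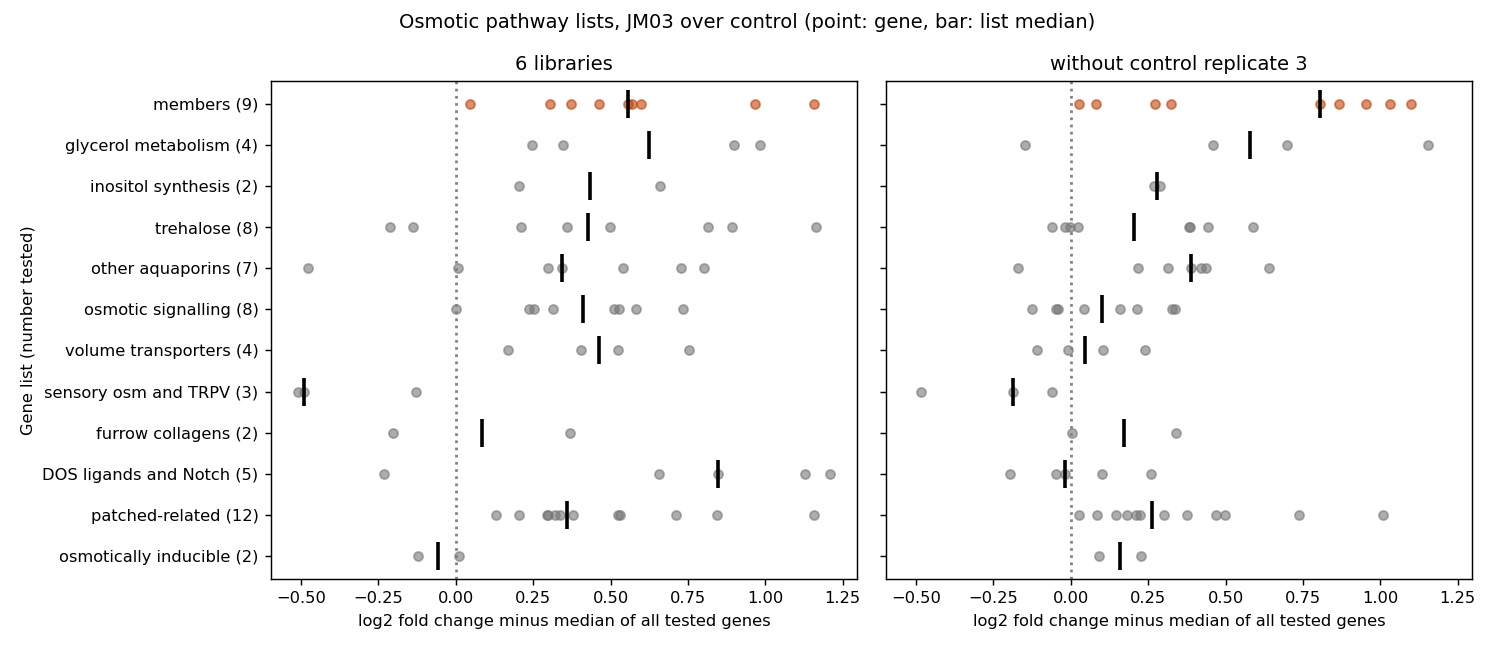
Log2 fold change, JM03 over control, minus the median of all tested genes (horizontal axis) for the 9 tested members (orange) and the tested genes of 11 osmotic lists (grey), with list medians as black bars, for 6 libraries (left) and without control replicate 3 (right). The member median is 0.56 on the left and 0.80 on the right, while those of the Notch, osmotic signalling and volume transporter lists are 0.85, 0.41 and 0.46 on the left and -0.018, 0.10 and 0.047 on the right. Before subtraction the member median was 0.91 and 0.85, and the subtracted median of all tested genes was 0.35 and 0.046.

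Of 6 marker sums for other tissues and cell types, those of oocytes and sperm did not overlap between groups and the other 4 did. The 10 intestine markers, none at 0 in any library, summed to 6507 to 8526 TPM in JM03 and 2791 to 7452 TPM in control, and the 11 epidermis markers to 74.4 to 152.2 TPM in JM03 and 28.8 to 83.3 TPM in control. Both overlapped between groups, and 3 epidermis markers were at 0 in at least 1 library. The 12 oocyte markers summed to 8569 to 10285 TPM in JM03 and 3673 to 8299 TPM in control, and the 11 sperm markers to 282 to 504 TPM in JM03 and 809 to 1612 TPM in control. Both sums were without overlap, none of these markers was at 0 in any library, and none of the tested ones was called. The 8 body wall muscle markers, none at 0, summed to 603 to 1183 TPM in JM03 and 353 to 723 TPM in control, with overlap, and the 8 ciliated neuron markers, 1 of them at 0 in at least 1 library, to 3.79 to 4.82 TPM in JM03 and 3.47 to 5.94 TPM in control, also with overlap. The part of tissue composition in the values of the 10 genes was not tested.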

How the data were processed

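The submitters' processing notes name fastp, HISAT, RSEM and WBcel235, without versions. Settings and use of strand: not given in the sources used here. A single table of TPM values was deposited, a unit inferred from its columns, which sum to 997816 to 998884. The 6 columns were placed by library title. Coordinates and transcript lengths came from the WBcel235 annotation (46603 of 46778 rows matched). List genes were matched by the table's symbol or, failing that, the reference symbol of the gene ID.

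Values were analysed as log2(TPM + 1) for genes that reached 1 TPM in 3 or more libraries, with limma 3.58.1 (trend, robust prior) in R 4.3.3, unpaired, with Benjamini-Hochberg adjustment over 12912 genes and calls below 0.05. The step was tested on simulated data. No set test was run. Members and lists were chosen with earlier results of these data known. Named list genes are the tested member of smallest p and up to 3 of highest mean, with *osm-9* and *ocr-2* for the title's OSM-9. *aqp-9*, *pgph-1*, *vha-5*, *exc-9*, *gadr-6*, *mrpl-35* and *npp-21* are outside this rule, chosen with their values already seen. Figures used matplotlib 3.10.9.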

Additional observations from a re-analysis of the deposited data

How the results depend on the processing

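Of the 13 alternatives, 12 were planned and 1, quantile normalization without control replicate 3, was added after seeing the data; tests foreseen for read counts were not run. No member and no gene of the osmotic lists was called in any of them, and the 9 members tested in the main comparison kept a positive log2 fold change. *osm-8*, tested only with no filter on low values, was at -0.018 there (limma adjusted p = 0.813). Over the alternatives the fold change ran from 0.73 to 1.40 for *gpdh-1*, 0.57 to 1.14 for *hmit-1.1*, 0.85 to 2.28 for *hmit-1.2*, 0.32 to 1.3 for *hmit-1.3*, 1.13 to 1.95 for *aqp-8*, 0.48 to 1.00 for *osm-11*, 0.37 to 0.88 for *ptr-23*, 0.13 to 0.56 for *osm-7* and 0.028 to 1.07 for *gpdh-2*. Quantile normalization gave the lowest value of *hmit-1.1* and a pseudocount of 0.1 the highest of *hmit-1.2*. A filter at 5 TPM left *gpdh-1*, *hmit-1.2* and *ptr-23* untested. Over all genes, 17 calls in the main comparison became 5 to 17 when single libraries were left out, with 5, 6 and 10 without JM03 replicates 1, 2 and 3 and 8 without control replicate 2. Fitting the replicate number as a block gave 0 calls (1600 with an unadjusted limma p below 0.05), and 5 members kept an unadjusted limma p below 0.05. The count of such members depended on single libraries. With JM03 replicate 1 left out, the smallest unadjusted limma p of a member was 0.056, that of *aqp-8*. With control replicate 2 left out, only *aqp-8* was below 0.05, at an unadjusted limma p of 0.042. No label states whether the numbers pair the samples. The deviations of same-numbered libraries correlated at -0.020, 0.080 and -0.146, and those of differently numbered libraries at -0.278 to 0.291. Deviations taken from group means of 3 libraries cannot decide whether the samples were paired. The cause of the shifts between alternatives was not tested.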
